A study of Rattus norvegicus with 20 samples.

Results

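The 10 genes described here carry the core of the Notch pathway: the receptors Notch1, Notch2 and Notch3, the ligands Jag1, Jag2 and Dll1, the ligase Mib1, the DNA-binding transducer Rbpj, and the target genes Hes1 and Hey1. They were taken by symbol from a count table of 32545 genes measured in the cortical collecting duct of the rat. The 10 symbols matched 11 rows, because Rbpj had 2 entries (ENSRNOG00000046327 and ENSRNOG00000007797). The second entry had 0 reads in all 20 libraries, and the remaining 10 rows all passed the filter on low counts that left 14472 genes for testing. The ducts had been microdissected from kidneys of Sprague-Dawley rats, all male and 5 weeks of age. Every rat, controls included, carried an osmotic minipump that delivered 5 ng/hr of DDAVP, a long-acting vasopressin analogue. The daily water given in gelled food was 50 mL for water-loaded and 25 mL for control rats, and kidneys were taken at day 1, 2 or 4. Each treatment was given to 3 rats for day 1, 4 rats for day 2 and 3 rats for day 4, with 1 library per rat. The comparison asks what a water load changes in duct cells under constant vasopressin signalling, the setting called vasopressin escape. A protocol text gives a stay of 4 days for all rats, whereas the sample titles give the 3 times used here.

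In Notch signalling a ligand of the Jagged or Delta-like type on the surface of a cell binds a Notch receptor on its neighbour. Mib1, a ubiquitin ligase, acts in the ligand-bearing cell, where ligand uptake pulls on the receptor and exposes it to cleavage. The freed intracellular domain joins Rbpj on DNA and turns on repressors of the Hes and Hey families. In the collecting duct this pathway is known to favour the principal cell, which takes up water and sodium, over the intercalated cell, which secretes acid or base.

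Promoters are shown for Hes1 and Dll1 because these were the most abundant members, and because both passed the test between days described further on. Each run is the 250 bases before the annotated start, written 5′ to 3′ on the strand of the gene, from RefSeq on the GRCr8 build. The Hes1 window lies at chr11:84213046-84213295 and the Dll1 window at chr1:64993275-64993524, both on the minus strand. Capitals mark GTGGGAA, a core word of sites that Rbpj binds, its reverse TTCCCAC, and the shorter word TGGGAA, which every GTGGGAA also contains.
Hes1: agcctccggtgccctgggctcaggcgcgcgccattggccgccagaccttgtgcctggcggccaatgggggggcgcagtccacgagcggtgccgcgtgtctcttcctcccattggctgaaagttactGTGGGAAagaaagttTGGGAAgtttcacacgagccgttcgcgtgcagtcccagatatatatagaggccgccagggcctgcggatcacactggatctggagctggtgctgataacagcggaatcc
Dll1: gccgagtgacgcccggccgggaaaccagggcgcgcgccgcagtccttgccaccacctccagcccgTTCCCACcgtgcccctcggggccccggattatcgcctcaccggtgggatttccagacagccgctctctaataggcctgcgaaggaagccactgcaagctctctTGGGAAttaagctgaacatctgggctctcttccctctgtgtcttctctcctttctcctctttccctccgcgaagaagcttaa

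In Hes1 the word GTGGGAA spans bases 124 to 118 before the start and a second TGGGAA spans bases 109 to 104, both on the gene's own strand. In Dll1 the reverse of GTGGGAA spans bases 185 to 179 and TGGGAA spans bases 82 to 77. Searched on both strands, GTGGGAA was found in 5.27% of 33469 windows of the same length and TGGGAA in 22.1%. Of 9 members with a window in the table, 2 held GTGGGAA (Hes1 and Dll1) and 4 held TGGGAA (these and Mib1 and Rbpj). At least 2 positions with TGGGAA were found in 2.71% of all windows. These matches describe letters in a window and were not read as binding.

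Each library held between 33.5 and 74.9 M gene reads (median 55.7), and 12665 to 15266 genes had reads. A floor of 3 counts corresponded to 0.0414 to 0.0925 CPM, a count scaled to the normalised size of its library. The tubules carried the markers of both duct cell types: Aqp2, the principal cell water channel, lay between 9239 and 55350 CPM, and Foxi1, the intercalated cell regulator, between 285 and 1088 CPM. A day 1 control and a day 1 water-loaded library stood apart in markers of other cells. In day 1 control 1 the 10 listed fibroblast, pericyte and smooth muscle genes summed to 5576 CPM, against at most 123.7 in any other library. In day 1 water-loaded 2 the proximal tubule list summed to 6640 CPM, against 34.2 to 2484 elsewhere, and the thick limb and distal tubule list to 13020 CPM, against 202.6 to 6500 elsewhere. Nearly all of that 13020 CPM was a single gene, Calb1, at 12930 CPM, and the other genes of that list added little. Several of the main values below are also given without them. In such bulk samples fewer cells of a type and less RNA per cell cannot be told apart.

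Hes1 was the most abundant of the 10 genes per unit of transcript length, and a receptor and the ligase were the least abundant. In FPKM, the authors' count per length and depth, Hes1 averaged 30 ± 15.3 (SD, n = 20 rats), with a range of 5.38 to 55.5. Dll1 followed at 9.37 ± 8.9 and Jag1 at 4.28 ± 3.23. Notch3 stood at 3.11 ± 3.06 and was the highest of the 3 receptors, above Notch1 at 1.15 ± 0.874 and Notch2 at 0.739 ± 0.716. Rbpj averaged 2.89 ± 1.97, Hey1 2.51 ± 3.42, Jag2 1.94 ± 5.17 and Mib1 0.426 ± 0.88. The gap from Hes1 to Dll1 was larger than either SD. For the other 8 neighbours in this order the gap was smaller than the larger SD. The SD describes single rats and not the error of a mean, and the order was not tested. By comparison, the duct cell markers averaged 5520 FPKM for Aqp2 and 255 FPKM for Foxi1.

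**Figure D1:**
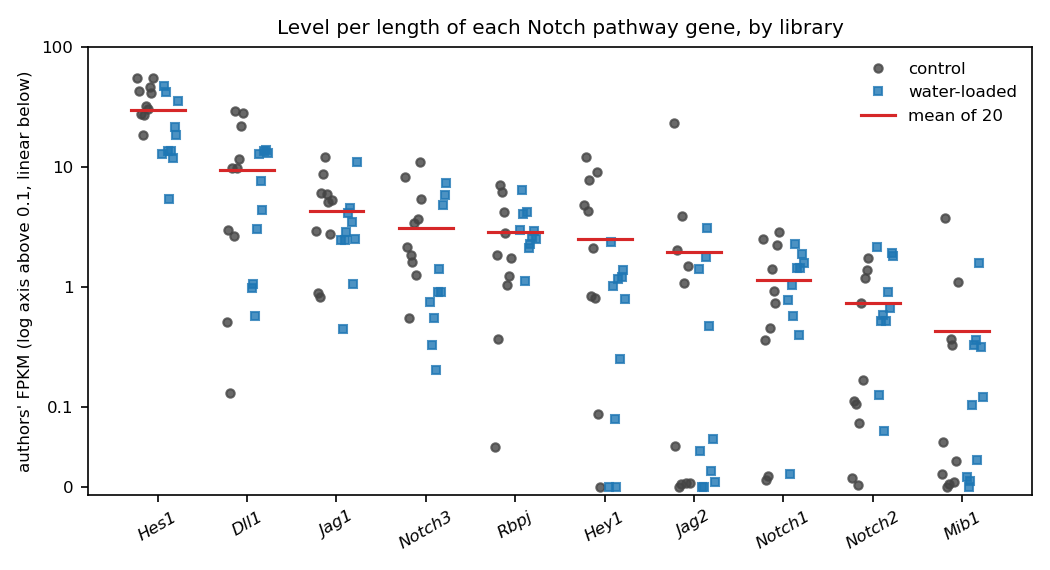
Level of each of the 10 genes in the authors' FPKM (vertical axis, logarithmic above 0.1 and linear below), with 1 point per rat, circles for control and squares for water-loaded rats, and a red line at the mean of 20. Hes1 lies between 5.38 and 55.5 in every rat, whereas Jag2 runs from 0 to 23.3 and Mib1 from 0 to 3.74.

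The genes also differed in how well rats of the same group matched. The within-group SD of log2 CPM was 0.7 for Hes1, 0.96 for Jag1, 1.04 for Rbpj, 1.11 for Notch3 and 1.17 for Dll1. It was 1.74 for Notch2, 2.33 for Hey1, 2.39 for Mib1, 2.41 for Notch1 and 3.85 for Jag2. The SD of Hes1 lay at percentile 22 of all tested genes and that of Jag2 at percentile 99.9. Jag2 counts ran from 0 to 5913, and only 12 of 20 libraries lay above the floor of 3 counts. Hey1 exceeded the floor in 16 libraries and Mib1 in 13. Differences in Jag2, Hey1 and Mib1 therefore carry large errors below.

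**Figure D2:**
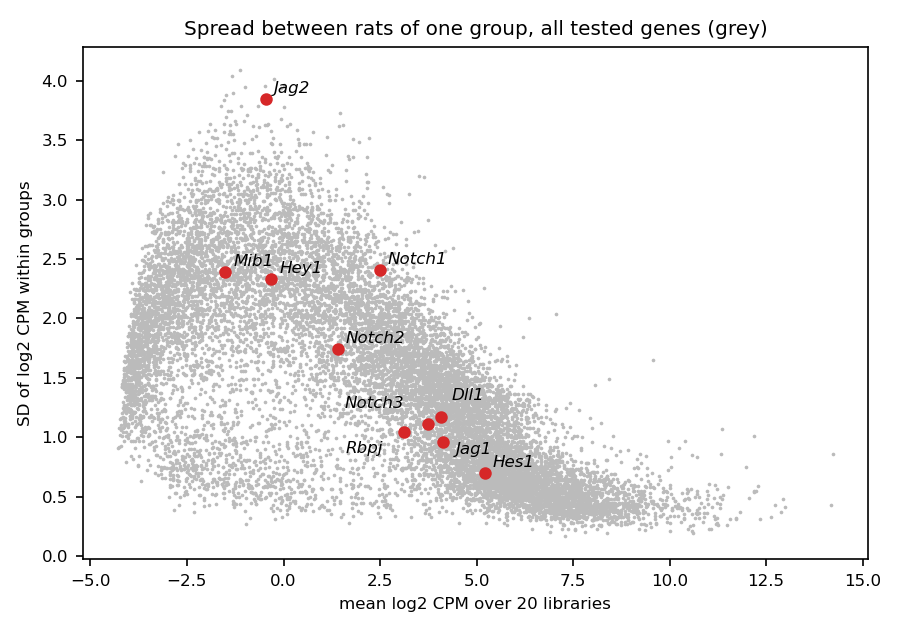
SD of log2 CPM within groups (vertical axis) against the mean log2 CPM over 20 libraries (horizontal axis), with grey points for all tested genes and red points for the 10 Notch pathway genes. Hes1 lies at 0.7 near the lower right, and Jag2 at 3.85 near the upper edge of the cloud.

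Under a water load Hes1 was lower than in control rats in every rat at day 2 and at day 4, Notch3 had a lower mean at each day, by a margin at day 1 that rested on a single control library, and Rbpj was higher at day 1. None of these differences passed the test over all genes. With edgeR's quasi-likelihood test and Benjamini-Hochberg adjustment over 14472 genes, 0 of 10 members passed an adjusted p of 0.05 over the average of days, where 23 genes (0.159%) passed. At each single day 0 members and 0 genes (0%) passed. At an unadjusted p under 0.05 the counts were 4 of 10 members at day 1 (15.6% of all genes), 1 at day 2 (5.23%), 0 at day 4 (7.22%), and 2 for the 3 days averaged (13.5%). The share at day 1 was thus above that of all genes, while at day 4 it was 0. The 4 members at day 1 were Notch2, Notch3, Mib1 and Rbpj, with log2 differences of 3.44, -3.21, -7.6 and 2.76. With 1 library left out, the smallest of each were 2.08, -1.33, -2.69 and 2.07. Single libraries thus carried a part of these differences.

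The signs of the fitted differences leaned down. Water-loaded rats were lower in 8 members at day 1 (48.9% of all genes), in 6 at day 2 (53.2%), in 8 at day 4 (49.8%) and in 8 for the 3 days averaged (49%). The 10 members had median log2 differences of -0.87 (day 1), -0.97 (day 2), -0.49 (day 4) and -0.83 (average). The median of all genes was 0, -0.05, 0 and 0.01. This lean rested in part on single libraries. Without day 1 control 1 the day 1 differences of Notch1, Jag1 and Hes1 turned to 1.56, 0.99 and 0.16. Without day 1 control 2 that of Dll1 turned to 1.13. At day 4 Hey1 turned to 4.22 without control 1, Jag2 to 2.29 without control 2 and Mib1 to -0.86 without water-loaded 1. With single libraries left out, only Notch1 turned over the average of days (0.60). Groups that did not overlap, with water-loaded rats lower, were found for Mib1 and Hey1 at day 1 (2 of 10, against 5.17% of genes). For Mib1 the lowest control had 3 counts and the highest water-loaded rat 2, both at or under the floor. Such groups were also found for Jag1 and Hes1 at day 2 (2 of 10, 1.88%), and for Dll1 and Hes1 at day 4 (2 of 10, 6.73%). Water-loaded rats lay above all controls for Notch2 and Rbpj at day 1 (2 of 10, 5.71%), for 0 of 10 at day 2 (2.35%) and for Rbpj at day 4 (1 of 10, 7.93%).

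The calls depended on the tool. DESeq2 passed 4 members at day 1, Notch2, Notch3, Mib1 and Rbpj, where it passed 8.28% of the genes it tested, and Notch3 over the average of days, where it passed 5.22%. At days 2 and 4 it passed 0 members (0.553% and 2.29% of genes). With limma-voom 0 members passed at any day or over the average. With the replicate number as a block, edgeR passed 5 genes and 0 members over the average of days.

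**Figure D3:**
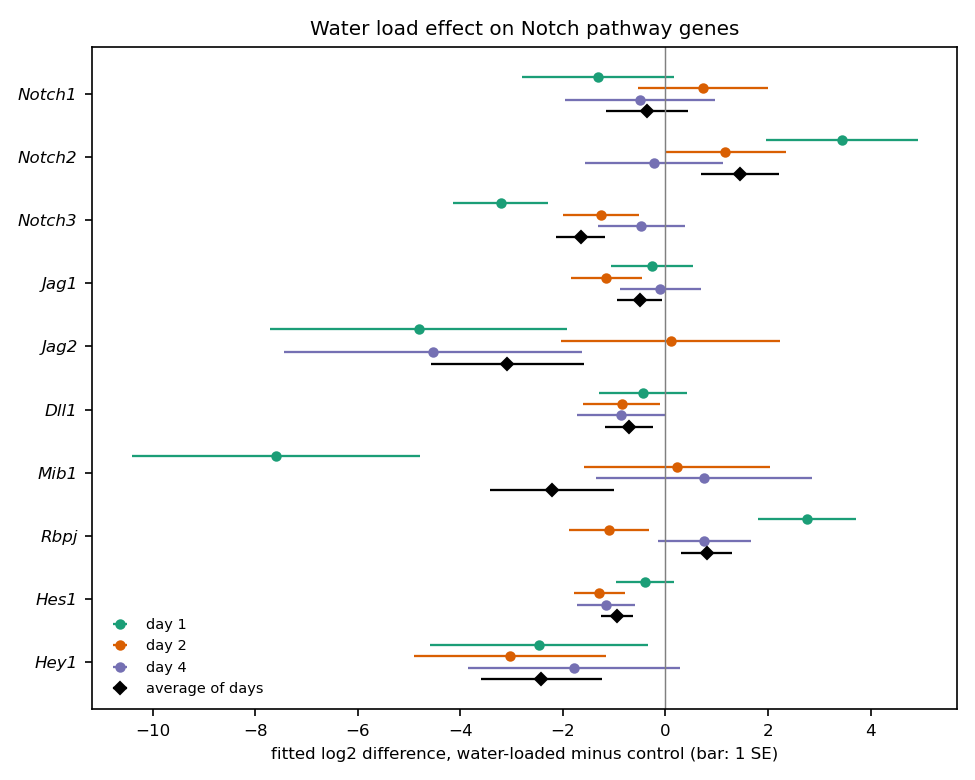
Fitted log2 difference, water-loaded minus control (horizontal axis), for each of the 10 genes at day 1 (green), day 2 (orange), day 4 (violet) and over the average of days (black diamonds), with bars of 1 SE. The 4 Hes1 estimates lie between -1.29 and -0.39 with short bars, and those of Jag2, Mib1 and Hey1 have bars that span several units.

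Among the receptors, Notch3, which is best known from the smooth muscle of vessels and also occurs in epithelia, had the smallest p of the 10 members over the average of days. At day 1 the control rats had 93.2, 16.6 and 3.99 CPM and the water-loaded rats 4.93, 3.47 and 3.86 CPM. The groups overlapped, since the lowest control lay among the water-loaded rats, and the highest control was the library with the smooth muscle signal. The fitted log2 difference at day 1 was -3.21 (SE 0.922, edgeR adjusted p = 0.221), and without day 1 control 1 it was -1.33. At day 2 the values were 13.2, 12.6, 22.4 and 8.93 CPM in controls and 1.46, 6.38, 8.94 and 7.03 CPM under water load. There the ranges met at their edge, with a log2 difference of -1.26 (SE 0.745). At day 4 controls had 27.8, 88.4 and 34.0 CPM and water-loaded rats 29.0, 34.8 and 44.8 CPM, with full overlap and a log2 difference of -0.47 (SE 0.848). Over the average of days the Notch3 difference was -1.65 (SE 0.481, unadjusted p = 0.00278, edgeR adjusted p = 0.148). It was -1.02 without day 1 control 1, and the part of the smooth muscle signal in it was not tested beyond that.

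Day 1 control 1 also held the highest Notch1, Jag2 and Hes1 values of the series, at 37.0, 163.3 and 124.3 CPM. Its reads included 5131 counts of Hey2, a Hey family target, against at most 6 in any other library. It further held 3564 counts of Notch4, the receptor known from endothelium, against at most 1329 elsewhere, and 1568 CPM of Myh11, smooth muscle myosin. Its endothelial marker sum of 983 CPM was likewise the highest of the 20 libraries.

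Notch2, a receptor with a known part in nephron formation, was low in day 1 controls and higher under water load. The controls had 0.138, 0.934 and 0.838 CPM and the water-loaded rats 15.5, 1.43 and 4.01 CPM. All 3 water-loaded rats lay above all controls, with a log2 difference of 3.44 (SE 1.48, unadjusted p = 0.0312, edgeR adjusted p = 0.285). It was 2.08 without day 1 water-loaded 1, the highest of the 3. At day 4 the groups overlapped, with 11.2 ± 1.21 CPM (SD, n = 3) in controls and 9.63 ± 4.60 (SD, n = 3) under water load. The fitted difference there was -0.22 (SE 1.35).

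Notch1 scattered too widely for a difference to be seen. Its controls ran from 0.0821 to 37.0 CPM at day 1, from 0.125 to 12.1 at day 2 and from 7.23 to 23.6 at day 4. The water-loaded rats ran from 0.212 to 9.54, from 4.04 to 21.1 and from 11.2 to 14.6 CPM. The log2 differences were -1.31, 0.73 and -0.50, each smaller than its SE of 1.48, 1.27 and 1.46. Without day 1 control 1 the day 1 value turned to 1.56.

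Among the ligands, Jag1 had groups that did not overlap at day 2, although the difference did not pass the test. The 4 controls had 33.5, 51.8, 61.0 and 32.7 CPM and the 4 water-loaded rats 15.8, 22.4, 21.8 and 20.6 CPM. All water-loaded rats were lower, with a 2.22-fold lower fitted level (log2 difference -1.15, SE 0.696, unadjusted p = 0.114, edgeR adjusted p = 1). At day 4 the groups overlapped, with controls at 29.7, 17.0 and 25.4 CPM and water-loaded rats at 4.86, 11.4 and 51.0 CPM. The day 1 values overlapped as well (log2 difference -0.26, SE 0.795), and that value was 0.99 without day 1 control 1.

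Dll1, a Delta-like ligand, had a lower mean in water-loaded rats at each day, with errors of about the size of the differences. At day 4 the controls had 44.5, 88.5 and 88.5 CPM and the water-loaded rats 40.8, 41.6 and 40.0 CPM. The groups did not overlap, and the water-loaded rats were alike within 0.782 CPM (SD, n = 3), against an SD of 25.5 CPM in controls. The log2 difference was -0.86 at day 4 (SE 0.864), -0.85 at day 2 (SE 0.748) and -0.44 at day 1 (SE 0.863). Without day 2 control 3, the highest rat of that day, the day 2 value was -0.12. Leaving out single libraries moved the day 1 value between -0.97 and 1.13. Over the average of days it was -0.71 (SE 0.477, edgeR adjusted p = 0.575), and -0.19 without day 1 control 2.

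Jag2 was at or under the floor of 3 counts in 8 libraries spread over 5 of the 6 groups. Its highest value outside day 1 control 1 was 16.1 CPM, in day 2 control 3. The log2 difference over the average of days was -3.08 with an SE of 1.49 (edgeR adjusted p = 0.381). It was -0.81 without day 4 control 2 and -1.67 with both unusual day 1 libraries set aside. At day 2 the difference was 0.10 with an SE of 2.13. No direction can be read for this gene.

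Mib1, the ligase that acts on the ligands, was near the limit of detection. At day 1 the 3 controls had 3, 11 and 782 counts and the 3 water-loaded rats 2, 0 and 1 counts. The lowest control and all water-loaded rats were at or under the floor. The highest control carried nearly all of the control signal. At day 2 controls had 0 to 1.15 CPM and water-loaded rats 0.124 to 1.11 CPM, and at day 4 the ranges were 0.0214 to 3.26 and 0.350 to 4.52 CPM. Outside day 1 the groups overlapped.

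Rbpj, through which all receptors act on DNA, had the smallest unadjusted p of the members for a difference of the water load effect between days. At day 1 the controls had 0.331, 8.24 and 1.56 CPM and the water-loaded rats 11.6, 40.1 and 16.8 CPM. All water-loaded rats were higher, by 2.76 on the log2 scale (SE 0.955, unadjusted p = 0.00938, edgeR adjusted p = 0.236). The highest of them was the library with the proximal tubule signal, and without it the difference was 2.07. With both unusual day 1 libraries set aside it was 1.52 (unadjusted p = 0.0832), and without day 1 control 2 it was 4.58.

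At day 2 the order was the other way round, with overlap. Controls had 29.9, 28.2, 16.3 and 11.7 CPM and water-loaded rats 4.68, 17.5, 7.76 and 10.3 CPM (log2 difference -1.10, SE 0.784). At day 4 the water-loaded rats were again higher without overlap, at 9.11, 10.3 and 8.99 CPM against 4.60, 5.83 and 6.36 CPM (log2 difference 0.76, SE 0.900). The test of whether the water load effect differed between days gave Rbpj an unadjusted p of 0.0183 and an adjusted p of 0.495. In that test 0 of 10 members and 0 genes (0%) passed after adjustment, and Rbpj and Mib1 were the 2 members under an unadjusted p of 0.05 (8.56% of all genes). DESeq2 also passed 0 members there (1.47% of genes), as did limma-voom.

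Hes1, the repressor that is the usual readout of Notch signalling, had the most even values of the 10 genes. At day 1 the controls had 124.3, 65.1 and 39.8 CPM and the water-loaded rats 16.9, 99.9 and 58.5 CPM, with wide overlap. The highest control, day 1 control 1, and the highest water-loaded rat, day 1 water-loaded 2, were the libraries with markers of other cells. At day 2 the controls had 26.3, 41.3, 42.4 and 43.1 CPM and the water-loaded rats 19.4, 7.58, 17.2 and 18.3 CPM. At day 4 the controls had 69.4, 65.4 and 67.8 CPM and the water-loaded rats 25.7, 21.7 and 43.0 CPM. All 7 water-loaded rats of days 2 and 4 thus lay below every control of the same day.

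The fitted Hes1 level was 2.45-fold lower at day 2 (log2 difference -1.29, SE 0.498, unadjusted p = 0.0174, edgeR adjusted p = 0.857). It was 2.24-fold lower at day 4 (log2 difference -1.16, SE 0.573, adjusted p = 0.692) and 1.31-fold lower at day 1 (log2 difference -0.39, SE 0.566). The day 1 value was 0.16 when control 1 was left out, and -1.02 when water-loaded rat 2 was. Over the average of days the log2 difference was -0.95 (SE 0.315, unadjusted p = 0.00718, adjusted p = 0.19). Leaving out any single library kept the average between -1.16 and -0.77, with adjusted p from 0.119 to 0.35. The effect did not pass the test of a difference between days (adjusted p = 0.971).

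The summed principal cell markers, most of which is Aqp2 (a mean of 21100 CPM over 20 libraries), were also lower in most of these rats. The 12 listed genes summed to 27420 to 43110 CPM in day 2 controls and 15380 to 28280 CPM in day 2 water-loaded rats, so the ranges overlapped. At day 4 the sums were 36830 to 72640 and 19950 to 29680 CPM. The shared intercalated cell markers, 8 of 9 of which were matched, summed to 5509 to 10850 and 10050 to 13500 CPM at day 2, and to 6046 to 10590 and 9015 to 12200 CPM at day 4. What part the mix of duct cells has in the Hes1 values was not tested.

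Hey1, the second target, was lower and close to the floor in many rats. At day 1 the controls had 6.91, 11.7 and 3.96 CPM and the water-loaded rats 0, 3.20 and 0.915 CPM, without overlap. The fitted difference was -2.46 with an SE of 2.12 (edgeR adjusted p = 0.639), and -4.04 without day 1 water-loaded 2. At days 2 and 4 the groups overlapped, with 0.729 to 7.07 against 0 to 0.939 CPM and 0 to 8.75 against 0.617 to 1.05 CPM. Over the average of days the log2 difference was -2.42 (SE 1.18, adjusted p = 0.383), and -0.42 without day 4 control 1.

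**Figure D4:**
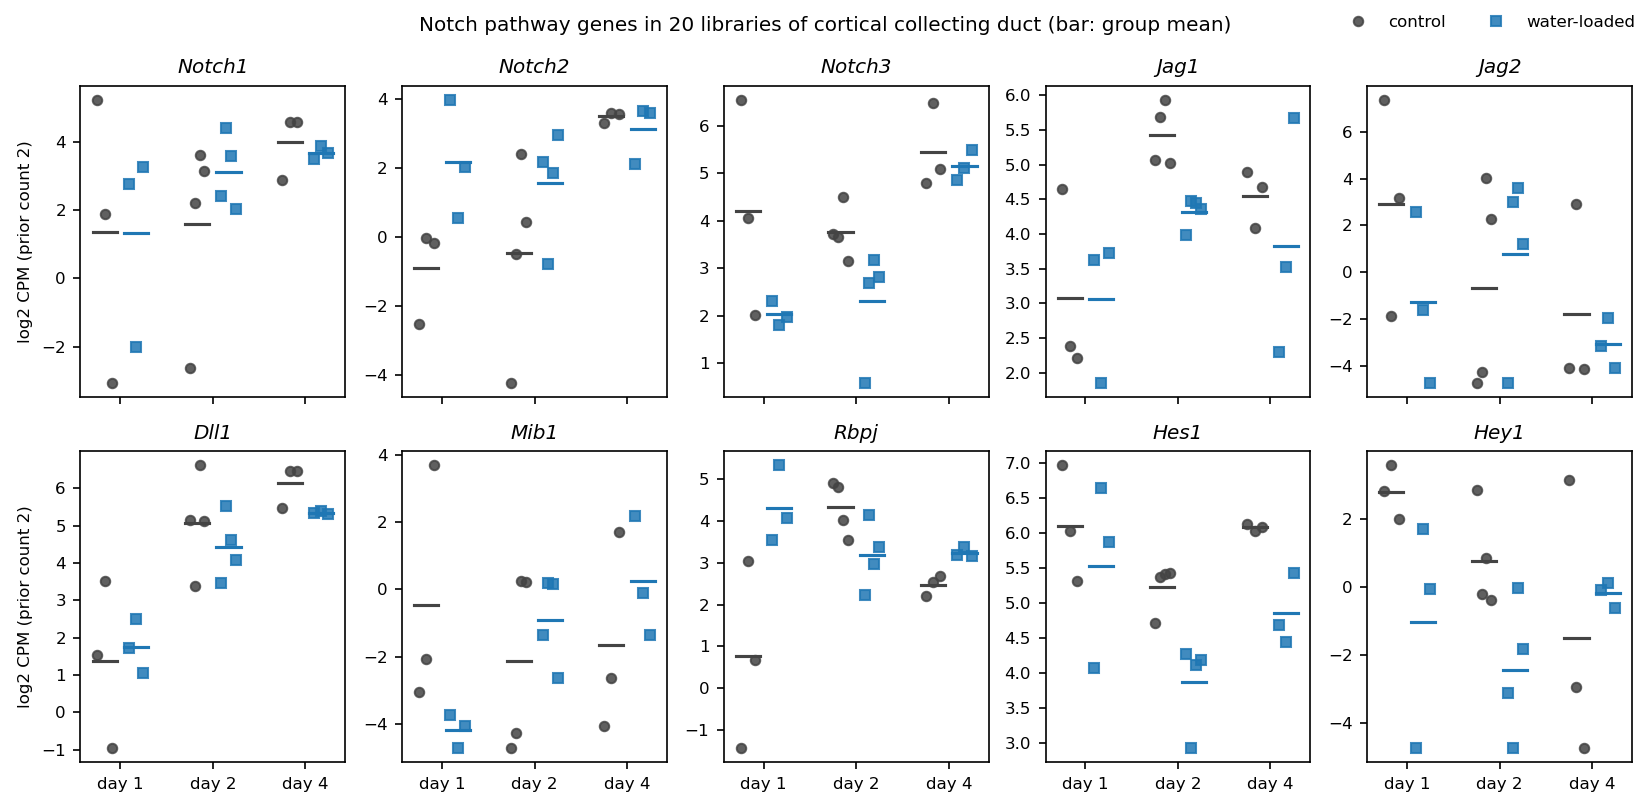
Log2 CPM (prior count 2, vertical axis, own range for each gene) of the 10 genes by day (horizontal axis), with 1 point per rat, circles for control and squares for water-loaded rats, and bars at group means. Hes1 squares lie below all circles at days 2 and 4, Dll1 is low at day 1 in both treatments, and Rbpj squares lie above the circles at days 1 and 4 only.

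Some members differed between days of collection, Dll1 first of all. Dll1 was low at day 1 in both treatments and rose by day 2 and day 4. At day 1 the controls had 2.87, 11.5 and 0.476 CPM and the water-loaded rats 3.27, 5.61 and 2.05 CPM. At day 2 the controls had 35.2, 10.4, 97.4 and 35.1 CPM and the water-loaded rats 10.95, 46.3, 24.5 and 17.0 CPM. Every rat of days 2 and 4, whatever its treatment, lay above every day 1 rat but for day 1 control 2, whose 11.5 CPM exceeded day 2 control 2 and day 2 water-loaded 1.

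In a comparison of the days averaged over both treatments, chosen after the data had been seen, edgeR passed 1205 genes (8.33%) and 3 of 10 members: Dll1, Notch3 and Hes1. For Dll1 the fitted log2 difference from day 1 was 2.97 at day 2 and 3.69 at day 4, a 12.9-fold higher level at day 4 (adjusted p = 0.00654). Over 26 alternatives its adjusted p ran from 9.41e-06 to 0.0234, so it passed in each. Time under treatment and anything handled per day of collection cannot be told apart in this design.

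Notch3 was highest at day 4. All 6 rats of day 4 had 27.8 CPM or more, whereas the 8 rats of day 2 had at most 22.4 CPM and day 1 rats other than day 1 control 1 at most 16.6 CPM. The log2 difference from day 1 was 1.77 at day 4 and -0.43 at day 2 (adjusted p = 0.0305). The fibroblast, pericyte and smooth muscle list summed to 6.67 to 83.9 CPM in these day 4 rats and to 24.9 to 123.7 CPM at day 2, and its part in the Notch3 values was not tested. With both unusual day 1 libraries set aside the adjusted p was 0.00601. The call was lost without day 4 control 2 (adjusted p = 0.104) and without day 4 water-loaded 1, 2 or 3 (0.0525, 0.0587 and 0.0749).

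Hes1 was lowest at day 2. The log2 difference from day 1 was -1.45 at day 2 and -0.57 at day 4 (adjusted p = 0.0472). This call stood close to the threshold, passed in 5 of 26 alternatives and was lost without 18 of the 20 libraries taken singly. The 2 libraries whose omission kept it were day 1 control 3 (adjusted p = 0.0338) and day 1 water-loaded 1 (0.0162). With both unusual day 1 libraries set aside the adjusted p was 0.107. Hes1 was lower at day 2 than at day 4 without overlap in both treatments.

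Within a treatment, counts of members whose days did not overlap were as follows. In control rats 2 of 10 lay higher at day 2 than at day 1 (6.94% of all genes) and 0 lower (6.36%). At day 4 against day 1 there were 2 higher (10.7%) and 0 lower (10.4%), and at day 4 against day 2 there were 3 higher (4.65%) and 2 lower (4.82%). Dll1 lay higher at day 4 than at day 1 without overlap in both treatments, and Jag1 higher at day 2 than at day 1. In water-loaded rats 3 lay higher at day 2 than at day 1 (8.14%) and 0 lower (5.9%). At day 4 against day 1 there were 4 higher (13.4%) and 1 lower (10.4%), and at day 4 against day 2 there were 2 higher (6.61%) and 0 lower (6.24%). Notch3 lay higher at day 4 than at day 2 in both treatments.

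By the test within a treatment 0 members passed. Among control rats 355 genes (2.45%) differed between days, and the member with the smallest adjusted p was Dll1 at 0.0676. In that comparison 3 members stood under an unadjusted p of 0.05 (22.5% of all genes), namely Dll1, Rbpj and Notch2. Notch2 had 0.138 to 0.934 CPM in day 1 controls and 9.82 to 12.1 CPM in day 4 controls. Rbpj peaked at day 2 in controls, at 11.7 to 29.9 CPM, above all day 4 controls. Without day 1 control 2, Dll1 and Rbpj passed (adjusted p = 0.0319 and 0.0386).

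Among water-loaded rats 38 genes (0.263%) differed between days. Under an unadjusted p of 0.05 stood 3 members (12.1% of all genes): Notch3, Dll1 and Hes1. The adjusted p of Notch3 was 0.133, and 0.0485 without day 1 control 1. DESeq2 passed Dll1, Notch2 and Rbpj among control rats (12.5% of genes) and Notch3, Dll1 and Hes1 among water-loaded rats (4.24%), and limma-voom passed 0 members in both.

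The rest of the pathway was read from a list of 55 further genes, of which 51 were matched by symbol and 42 tested. Over the average of days 0 of 42 passed, 15 were higher and 27 lower in water-loaded rats, and the median log2 difference was -0.23 against 0.01 for all genes. By role, 5 of 8 proteases that cut the receptor or mature it were lower, as were 6 of 9 corepressors, 4 of 6 coactivators and 3 of 4 further targets. Of the 5 glycosyltransferases that decorate the receptor 1 was lower and 4 were higher. Of these 4, Lfng (0.02) and Rfng (0.07) were near 0, and the median of the 5 was 0.07. Of all genes 49% were lower, and the roles were not tested against each other. The listed genes under an unadjusted p of 0.05 numbered 5 of 42, all lower in water-loaded rats, a share below the 13.5% of all genes.

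Fbxw7, which marks the cleaved receptor for decay, had a log2 difference of -5.13 (SE 1.68, edgeR adjusted p = 0.186). It rested on few rats, since 83.7 CPM were found in day 1 control 1 and at most 15.1 CPM in any other library. Without day 1 control 1 the difference was -2.32 (adjusted p = 0.563). The corepressor Tle3 had -0.81 (SE 0.30, adjusted p = 0.236) and the γ-secretase subunit Aph1a -0.57 (SE 0.223, adjusted p = 0.255). The coactivator Crebbp had -0.63 (SE 0.297), and -0.41 without day 1 control 1.

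In the comparison of days averaged over treatments 4 of 42 passed, close to the 8.33% of all genes. Furin, Ncstn and Hes2 were among them, and they are named after their values were seen. Ncstn, a γ-secretase subunit, was 1.86 higher on the log2 scale at day 2 than at day 1 and 2.56 higher at day 4 (adjusted p = 0.00599). Furin, the protease that matures the receptor, had a log2 difference of -1.14 at day 2 and 0.24 at day 4 (adjusted p = 0.00508). Hes2 had reads only at day 2, in 5 of 8 rats, with 4, 398, 47 and 55 counts in controls and 0, 0, 23 and 0 under water load. It passed the filter on low counts only through that day, so its call between days rests on the same values that let it be tested.

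Other members of the families that were not among the 10 helped to place the levels. Dll4, a ligand known from endothelium, averaged 12.3 FPKM and so was close to Dll1, and its log2 difference over the average of days was -0.22. Hes6, listed with the further targets, averaged 211 FPKM, against 30 for Hes1, and whether it responds to Notch here was not tested. Mib2, listed with ligand uptake, averaged 21.7 FPKM, against 0.426 for Mib1. Heyl, another target, averaged 3.79 FPKM. Notch4 averaged 1.45 FPKM. Dll3 had no reads in any library.

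The genes that mark the fate of duct cells were set beside the pathway. Of 9 such genes 2 passed over the average of days. Aqp2 was 2.10-fold lower under water load (log2 difference -1.07, SE 0.186, edgeR adjusted p = 0.0262). With a block for replicate number the Aqp2 call did not hold (adjusted p = 0.185), nor did it hold when any of 9 libraries was left out. These were controls 1 of day 1, 3 of day 2 and 1 and 2 of day 4, and water-loaded rats 3 of day 1, 1 and 2 of day 2 and 1 and 2 of day 4. The adjusted p was at most 0.091 without any single library, at a difference of -1.16 to -0.98. Hmx2, a transcription factor listed with the type B intercalated cell, was 1.89-fold lower (log2 difference -0.92, SE 0.121, adjusted p = 0.00202), and passed in all 27 alternatives. Gata3, a principal cell transcription factor, had a difference of -0.62 (SE 0.208, adjusted p = 0.192).

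The other intercalated cell genes of this list did not pass over the average of days. The proton pump subunit Atp6v1b1 had a log2 difference of 0.54 (SE 0.147, adjusted p = 0.126) and the type A exchanger Slc4a1 0.32 (SE 0.174). The regulators Tfcp2l1 and Foxi1 had 0.25 (SE 0.213) and -0.01 (SE 0.159), and the type B exchanger Slc26a4 had 0.04 (SE 0.132). By day the Foxi1 differences were 0.64, -0.11 and -0.57 at days 1, 2 and 4, without overlap at days 1 and 4. Those of Tfcp2l1 were 0.85, -0.49 and 0.39, without overlap at day 1. None passed, and the edgeR adjusted p for a difference between days was 0.502 (Foxi1) and 0.569 (Tfcp2l1). Elf5, another principal cell transcription factor, reached at most 0.871 CPM and was at 0 in 12 libraries. Foxi1 did rise over the days in control rats, by 0.87 at day 2 and 1.56 at day 4 on the log2 scale (adjusted p = 0.0236). That call was lost without day 1 control 1 (adjusted p = 0.0849) or day 4 control 1 or 2 (0.0561 and 0.063).

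Likeness across libraries was measured as Pearson's r of log2 CPM over 20 libraries, which share groups, days and cell mixture, and is given as a description. Of 7721 genes with a mean of at least 10 CPM, those most like Hes1 were Tnfrsf12a (r = 0.894), Fuz (0.874) and Ier3 (0.866). Those most like Dll1 were Cfap20 (0.867), Ahsa2 (0.862) and Pex11g (0.859). Those most like Notch3 were Tle3 (0.902), Actn4 (0.895) and Tjp3 (0.882). These values were the highest of 7721 genes searched, so they are no measure for the few pairs of members. Among the members themselves the highest values over 20 libraries were 0.51 for Hes1 with Hey1 and 0.50 for Notch3 with Dll1 and with Notch1. Within groups the highest was 0.61, for Notch3 with Notch1. Over 20 libraries the most opposed pair was Hey1 with Notch2 (r = -0.48). Of the receptors and ligands, Hes1 had r = 0.41 with Notch3 over 20 libraries, and 0.23 within groups. With the others it had -0.05 (Notch1), -0.06 (Jag2), -0.07 (Jag1), -0.08 (Notch2) and -0.16 (Dll1) over 20 libraries.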

How the data were processed

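RNA was sequenced from microdissected cortical collecting ducts of 20 rats, 1 library per rat. The authors deposited read counts per gene, whole numbers, and FPKM values computed per gene length. The submitters' processing notes name Trimmomatic 0.32, STAR 2.4.0.1, SAMtools, HTSeq and rn6. The annotation and any use of strand were not given in the sources used here. Genes that overlap on opposite strands could therefore share reads. Left out were 5 lines without a gene name, with 31.45% to 35.61% of the counts per library, mostly multimapped reads (21.32% to 26.92%). Floors cover counting error only, because the labels name no molecular identifiers and amplified reads may be copies of each other.

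A single quasi-likelihood fit in edgeR 4.0.16 (R 4.3.3) tested the counts with TMM factors, filterByExpr on group and a mean per group. P-values were adjusted by Benjamini-Hochberg across the whole table and called under 0.05. Levels of members were ordered by FPKM, which is per length, and marker lists were summed in CPM within a list. Scripts were tested on simulated data. The 10 members, the gene lists and the tests were chosen with earlier results of these data known, and the comparison of days averaged over treatments was added after seeing the data. Named were all members, 9 duct cell fate genes, pathway genes called in a planned comparison and the 4 others with the smallest p over the average of days. For the 3 members with the highest CPM the 3 genes most like each were named. Other families' values were chosen after they were seen. A result that the rule would name is not reported here.

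Same-numbered rats of both treatments deviated together weakly at day 2 (r = 0.148, 0.147, 0.154 and 0.236) but not at days 1 and 4 (r = -0.091 to 0.06). At day 2 the same-numbered rat was the best match for controls 1, 2 and 4 but not for control 3. No library was taken as a copy of another, as the highest Spearman correlation between libraries was 0.949. Promoters came from RefSeq (GRCr8), matched by symbol. Alternatives were DESeq2 1.42.0, limma-voom (limma 3.58.1), DESeq2's size factors, other filters, a replicate block, 2 day 1 libraries set aside, and each library left out in turn.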

Additional observations from a re-analysis of the deposited data

Results flagged for a closer look

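In the day 2 groups, the groups of 4 rats, the gap between the highest or lowest rat and its nearest neighbour was set against the whole range of the group. Of 20 such tests, 10 genes in 2 groups, 2 exceeded Dixon's critical value for groups of 4, and chance flags about 1 in 20 groups. Both concerned Hes1, and in both the lowest rat stood apart. Day 2 control 1 had 26.33 CPM against 41.26 to 43.12 CPM in the other 3 controls. Day 2 water-loaded 2 had 7.578 CPM against 17.18 to 19.41 CPM in the other 3 water-loaded rats. The groups do not overlap with or without these rats, and the fitted day 2 difference was -1.43 without the first and -1.06 without the second.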

How the results depend on the processing

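The 10 members gave 2114 values under 27 alternatives, of which 2039 kept their direction and their side of the threshold, 34 reversed and 16 passed under the alternative only. The cause of these changes was not tested. Group sizes of 3 and 4, amplified libraries and the 3 members near the floor limit what could be seen.

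Genes passed by DESeq2 numbered 1132, 77 and 319 at days 1, 2 and 4, 714 over the average, 183 for the difference between days, 1589 and 517 for days among control and water-loaded rats, and 2439 for days averaged over treatments. It passed 4 members at day 1 (8.28% of genes), 1 over the average (5.22%), 3 among control rats (12.5%) and 3 among water-loaded rats (4.24%). For days averaged over treatments it passed 4 members, where it passed 18.5% of the genes it tested. With limma-voom 2, 19 and 59 genes passed at day 1, day 2 and over the average, 1 for the difference between days and 95 among water-loaded rats. A filter of a mean of 5 CPM gave 559 genes and 1 member (Dll1) among control rats and 85 genes among water-loaded rats. With day 1 control 1 and day 1 water-loaded 2 set aside, 185 and 11 genes passed there.

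Same-numbered rats deviated together at day 2 only, and weakly (r of 0.147 to 0.236), and the sample titles do not say that they were paired. With the replicate block, 5 genes passed over the average of days against 23, and Aqp2 was lost, but no member's call changed. Dll1 at day 1 turned to 0.38 and Hey1 at day 4 to 2.82. For days, no blocked fit across treatments was made.

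Signs also reversed under limma-voom at day 1 for Notch1 (0.44), Jag1 (0.18) and Dll1 (0.44), at day 4 for Hey1 (2.04) and over the average for Notch1 (0.60). With the 2 day 1 libraries set aside Notch1 gave 2.12 at day 1 and 0.79 over the average, Jag1 1.38 and 0.048, and Slc26a4 -0.0092 over the average. Foxi1 over the average was 0.0043 with DESeq2 and with its size factors, and 0.02 with the 5 CPM filter.

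Leaving out each library in turn gave 0 to 9 genes at day 1, 6 to 37 over the average, 0 to 3 for the difference between days, 43 to 563 among control rats, 5 to 79 among water-loaded rats and 751 to 1209 for days averaged over treatments. Members passed numbered 0 to 2, 0 to 1 and 1 to 3 in the last 3 of these. Ranges that crossed 0 at day 1 were -1.92 to 1.56 (Notch1), -0.64 to 0.99 (Jag1), -0.97 to 1.13 (Dll1) and -1.02 to 0.16 (Hes1). At day 2 they were -0.63 to 1.81 (Jag2) and -0.19 to 0.82 (Mib1). At day 4 they were -0.42 to 0.16 (Notch2), -0.76 to 0.23 (Notch3), -1.57 to 0.41 (Jag1), -5.65 to 2.29 (Jag2), -0.86 to 4.71 (Mib1) and -2.37 to 4.22 (Hey1). Over the average they were -0.56 to 0.60 (Notch1), -0.11 to 0.043 (Foxi1) and -0.011 to 0.097 (Slc26a4).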
